A study of Mus musculus and Homo sapiens with 7 samples.

Results

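Guides against solute carriers were examined in a pooled CRISPR/Cas9 screen of B16-F10 cells, a mouse melanoma line. They were all guides of the deposited guide table whose target gene has a symbol of Slc followed by a digit, without Slc2a1 and Slc16a1. This rule gave 170 of 10021 guides in the table, aimed at 17 of its 929 genes, with 10 guides for each gene. The B16-F10 cells stably expressed Cas9 from a lentiviral vector, received the guides and spent 7 days under puromycin (2 µg/mL), which removes cells without a guide vector. They were then kept for 48 h in galactose or glucose medium. Guides were amplified from 5 µg of genomic DNA of dead cells from galactose medium (3 libraries) and of living cells from glucose medium (2 libraries). Medium and cell state changed together between these groups, so their effects cannot be told apart. All 17 genes matched a RefSeq mouse symbol, and guide sequences were not analysed here.

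Solute carriers are membrane proteins that move nutrients, ions, metals and metabolites across the plasma membrane or the membranes of organelles. They are numbered by family, and members of a family usually share a kind of substrate. In galactose medium cells gain little ATP from glycolysis and depend more on mitochondrial respiration, which draws on amino acids, phosphate and metal cofactors that carriers bring into the cell. In such a screen, a guide that removes a gene needed in galactose should gain frequency in the dead fraction, and the guides that match no gene show how far frequencies move without a target.

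By substrate, the genes described one by one were Slc7a5, Slc38a3, Slc3a1 and Slc7a6os (amino acids), Slc2a4 and Slc5a1 (sugars), Slc20a1, Slc20a2 and Slc34a1 (phosphate), Slc31a1, Slc31a2 and Slc39a14 (metals), Slc22a2 and Slc22a3 (organic ions) and Slc35b2 (from the nucleotide sugar family). Genes were assigned to these classes by family number. Slc7a6os fell under the rule by its symbol, but the symbol means the opposite strand of Slc7a6, and the gene encodes no carrier. Amino acid values are therefore given with and without it.

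Recovered reads came to 14722850, 13275792 and 15591466 for the dead libraries (a to c), against 6801049 and 8492138 in living libraries a and b. The letters follow the order of values in the deposited table, which holds no replicate number. A single read was worth 0.761 to 0.863 normalised counts in dead libraries and 1.25 to 1.57 in living ones. Of the 170 solute carrier guides, 36 (21.2%) were at 0 in all 5 libraries, against 22.4% of all guides, 19.2% of non-targeting guides (which match no site) and 26.9% of safe-targeting guides (which cut outside genes). A further 12 had a mean under 10 normalised counts, which left 122 guides tested. A guide can pass this mean through the group where it is high, and there are more dead than living libraries.

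Replicate libraries of dead cells differed more from each other than those of living cells did. The median solute carrier guide differed by 0.614 log2 units between dead libraries a and b, by 0.64 between a and c and by 0.464 between b and c, against 0.209 between living libraries a and b. Over all tested guides the same medians were 0.56, 0.534 and 0.457 in dead libraries, against 0.217 in living ones. The spread was widest for rare guides. For the 22 solute carrier guides with a living mean under 100, dead libraries a and b differed by a median of 4.65 log2 units, against 0.646 for the living libraries. For the 64 with a living mean of at least 500, these medians were 0.353 and 0.143.

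None of the 17 solute carrier genes passed the test in either direction. Gene changes were means over guides of log2(normalised count + 1), dead galactose minus living glucose, tested in limma with Benjamini-Hochberg adjustment over 915 genes. The smallest adjusted p among the carriers was 0.329, and 0% of all genes were called in either direction. Without adjustment, 2 carriers had a p under 0.05, both lower in dead cells, and none was higher, where 7.98% of all genes were lower and 1.53% higher at that level. The median carrier gene stood at -0.14 in dead relative to living cells, beside -0.16 over all genes. Leaving out dead library a moved it to -0.082, beside -0.11 over all genes, and leaving out dead library c to -0.23, beside -0.21. Without Slc7a6os, 5 of 16 genes lay above 0 and the median was -0.10. Of the carriers, 5 (29.4%) lay above 0 and 12 (70.6%) below, close to 31.8% and 68.2% of all genes. Every dead library lay above both living ones for 1 carrier (Slc31a1), and 8.31% of all genes did so. Every dead library lay below both living ones for 6 of the 17 carriers, where the share over all genes was 23.9%. Of the 15 genes described one by one, Slc7a5, Slc39a14 and Slc20a1 kept their sign under all alternatives tried, and each of the others turned under at least 1. The median carrier gene was at 0.11 when reads were summed per gene in edgeR, beside 0.0059 over all genes. It was at 0.13 when the median guide level in each library replaced the mean, beside -0.059 over all genes. The labels do not say whether libraries came from separate cultures, so these p-values measure only the spread between the libraries.

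Guide by guide, the carriers' median and their share of higher guides lay between those of the non-targeting and the safe-targeting guides. The 122 tested guides had a median change of -0.13, with quartiles of -0.62 and 0.32. The 286 tested non-targeting guides had a median of -0.17, the 263 safe-targeting guides 0.0056 and all 7248 tested guides -0.091. The SD over guides was 0.918 for carriers, 0.989 for non-targeting and 1.07 for safe-targeting guides. Above 0 were 45.9% of carrier guides, 38.5% of non-targeting guides, 51.3% of safe-targeting guides and 43.7% of all guides. Below 0 were 54.1% of carrier guides and 56.3% of all. Every dead library lay above both living ones for 19 carrier guides (15.6%, where all guides had 15%) and below both for 26 (21.3%, where all guides had 17.7%). Changes over 1 occurred in 6 carrier guides (4.92%, beside 6.17% of all) and changes under -1 in 19 (15.6%, beside 12.5% of all). No carrier guide passed limma's test over all guides, where 0% were called higher and 0.0276% lower. Before adjustment, 1 carrier guide was higher and 9 were lower with p under 0.05, beside 3.63% and 4.24% of all guides.

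Amino acid carriers supply protein synthesis and, through glutamine, the mitochondrial carbon cycle. All 4 genes of the class had a change below 0, where 68.2% of all genes did. Their median was -0.47, and none passed the test. Slc3a1 was at -0.014, and of the 4 genes only Slc7a5 kept its sign under all alternatives tried. Of the 30 tested guides of the class, 11 were higher and 19 (63.3%) lower, beside 56.3% of all guides, with a median of -0.45. Without Slc7a6os, the median of the other 3 genes was -0.56, 9 of 24 guides were higher and the guide median was -0.36. Guides of this class were rare: their median living count was 217, where it was 578 over all tested carrier guides.

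Slc7a5 encodes LAT1, the transporter of large neutral amino acids such as leucine, which many tumour lines express strongly. Its 7 tested guides averaged 5.58, 4.37 and 4.47 log2 units in the dead libraries, in the order a to c, against 6.10 and 6.93 in living libraries a and b. All dead libraries lay below both living ones. The difference of -1.71 ± 0.45 (SE, 3 against 2 libraries; 95% interval -2.83 to -0.59) was the fourth lowest of all 915 genes, with a limma p of 0.00982 and an adjusted p of 0.329. None of the 7 guides was higher in dead cells.

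Most Slc7a5 guides were rare. The lowest, guide 181846, had 0, 38 and 0.774 counts (normalised, as throughout) in dead libraries, against 59.6 and 115 in living ones (-4.35 ± 1.77), so the dead libraries rest on few reads. Guide 181840 had 51, 0.863 and 10.1 counts in dead libraries, against 58.1 and 54.9 in living ones (-2.49). The most abundant, guide 181847, had 448, 695 and 731 counts in dead libraries, against 1533 and 1122 in living ones (-1.10 ± 0.33). All 3 of these guides lay lower in every dead library. The highest, guide 181839, had 254, 197 and 79 counts in dead libraries, against 209 and 205 in living ones (-0.38), and its groups overlapped. Summed over its tested guides, Slc7a5 took 79.7, 83.7 and 82.9 ppm of all reads in dead libraries, against 190.3 and 159.4 in living ones. Of these summed reads, guide 181847 alone supplied 589 of 1173, 805 of 1111 and 944 of 1293 in dead libraries. In living libraries it supplied 977 of 1294 and 899 of 1354. With only the guides averaging 50 counts or more, the gene's difference was -0.85.

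Slc38a3 encodes a sodium-coupled glutamine carrier. Its guides averaged 7.36, 6.88 and 7.77 log2 units in dead libraries, against 7.90 and 7.88 in living ones, a difference of -0.56 ± 0.30 (adjusted p = 0.609). Every dead library was lower, but 4 of 8 guides were higher. The lowest guides were rare, and with only the guides averaging 50 counts or more the gene stood at -0.21. Guide 121952 had 96.6, 0.863 and 1.55 counts in dead libraries, against 54.9 and 41.2 in living ones (-2.65). Guide 121944 had 0, 29.3 and 106 counts in dead libraries, against 75.3 and 82.4 in living ones (-2.43). Both spanned a wide range over the dead libraries, which overlapped the living ones. The highest, guide 121947, had 1313, 1859 and 2946 counts in dead libraries, against 1106 and 1091 in living ones (0.81 ± 0.40), with no overlap. Summed reads of the tested Slc38a3 guides were 594.9, 580.8 and 659.8 ppm in dead libraries, against 534.6 and 611.5 in living ones, and these overlapped. The sign of Slc38a3 turned when the median guide level in each library replaced the mean (0.23) and on summed reads in edgeR (0.16), while its median guide change was -0.048.

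Slc3a1 encodes rBAT, the heavy subunit of the transporter of cystine and dibasic amino acids. Its mean change was -0.014 ± 0.21, with 5 of 9 guides higher. The direction of so small a value rested on single libraries: it was 0.079 without dead library c and 0.12 without living library a. Individual guides lay far apart, on opposite sides. Guide 110131 had 1113, 2674 and 3559 counts in dead libraries, against 1092 and 930 in living ones (1.12 ± 0.57). Guide 110124 had 270, 238 and 217 counts in dead libraries, against 590 and 573 in living ones (-1.27 ± 0.21). The groups overlapped for neither guide, and the limma p of guide 110124, 0.00257, was the smallest of any carrier guide (adjusted p = 0.373).

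Slc7a6os was at -0.39 ± 0.49, with 2 of 6 guides higher. Its living libraries a and b differed, at 5.95 and 7.61 log2 units, and leaving out living library a gave -1.22 while leaving out b gave 0.44. Its guide 166151 was among the 5 highest carrier guides (1.51 ± 1.28), with 26.6, 49.2 and 10.8 counts in dead libraries, against 1.57 and 30 in living ones. Those counts are small and overlap.

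Metal carriers bring in copper, zinc, iron and manganese, and copper is a cofactor of cytochrome c oxidase. Of 21 tested guides in this class, 13 (61.9%) were higher, beside 43.7% of all guides, and 8 lower, with a median of 0.14. The 13 include guide 224346 of Slc39a14, which passed the filter through the dead libraries alone. The gene median was 0.14 over 3 genes. Of these, 2 were above 0, where 31.8% of all genes were, and none passed the test.

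Slc39a14 encodes ZIP14, an importer of zinc, manganese and iron, and had the highest mean change of the carriers. Its 5 tested guides averaged 8.94, 8.26 and 9.50 log2 units in dead libraries, against 8.31 and 7.68 in living ones. Dead library b lay below living library a, so the groups overlapped. The difference of 0.91 ± 0.41 (SE, 3 against 2 libraries; 95% interval -0.11 to 1.92) had a limma p of 0.0708 and an adjusted p of 0.551. By dead library, the difference from the living mean was 0.94, 0.27 and 1.51. Leaving out living library b gave 0.59, and leaving out dead library b gave 1.23.

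For Slc39a14, 4 of 5 tested guides were higher in dead cells. The highest of all carrier guides, 224346, had 37.3, 0 and 32.5 counts in dead libraries, against 1.57 and 0 in living ones (2.76 ± 1.88). It passed the filter through the dead libraries alone. Guide 224351 had 1987, 4929 and 5839 counts in dead libraries, against 1975 and 1711 in living ones (1.07 ± 0.55), and guide 224344 had 1094, 1647 and 1782, against 1089 and 794 (0.67 ± 0.33). The dead values of both lay above the living ones, though dead library a exceeded living library a by little. The lowest, guide 224345, had 308, 149 and 374 counts in dead libraries, against 442 and 227 in living ones (-0.30), with overlap. Without guide 224346, under a filter of at least 10 counts in living libraries or of 50 over all, Slc39a14 stood at 0.44. Of its other 5 guides, 4 were at 0 everywhere and 1 fell under the filter.

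Slc31a1 encodes CTR1, the main copper importer. Its guides averaged 9.31, 9.56 and 9.33 log2 units in dead libraries, against 9.29 and 9.22 in living ones. This is the carrier whose dead libraries all lay above the living ones, by a small margin: 0.14 ± 0.19 (adjusted p = 0.843), with 4 of 8 guides higher. Guide 116558, by far the most abundant, had 7169, 8306 and 6869 counts in dead libraries, against 3091 and 3239 in living ones. Its fold of 2.35 (log2 1.23 ± 0.21) had a limma p of 0.00273 and an adjusted p of 0.377. Guide 116553 was the highest of this gene, with 129, 386 and 72.8 counts in dead libraries, against 58.1 and 46.2 in living ones (1.55 ± 0.77). Both guides were above the living libraries in every dead library. Guide 116560 lay the other way, with 173, 117 and 86.7 counts in dead libraries, against 254 and 193 in living ones (-0.87 ± 0.38). So did guide 116559, with 309, 236 and 368 against 400 and 599 (-0.71). Of the 8 tested guides of Slc31a1, which share one target gene, 2 thus lay above and 2 below without overlap. The groups overlapped for the others.

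Slc31a2, a related copper carrier of endosomes and lysosomes, was at -0.067 ± 0.29 with 5 of 8 guides higher. Without dead library a it was at 0.18. On the chromosome, Slc31a2 and Slc31a1 are separated by 1 protein-coding gene, Fkbp15.

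Sugar carriers were of interest because the medium's sugar was the treatment. Slc2a4 encodes GLUT4, the insulin-responsive glucose carrier of muscle and fat. Its guides averaged 9.81, 10.14 and 10.23 log2 units in dead libraries, against 9.94 and 10.06 in living ones. The groups overlapped, and the difference was 0.061 ± 0.22 (adjusted p = 0.934), or -0.025 without dead library c. Guide 11788 had 699, 893 and 1429 counts in dead libraries, against 651 and 649 in living ones (0.57), and guide 11792 had 555, 443 and 522, against 722 and 879 (-0.66). These are its highest and lowest guides, and neither had overlapping groups.

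Slc5a1 encodes SGLT1, the sodium-coupled carrier that takes up both glucose and galactose in the intestine. Its guides averaged 7.89, 8.23 and 8.26 log2 units in dead libraries, against 8.67 and 8.59 in living ones. Every dead library was lower, by -0.50 ± 0.21 with a limma p of 0.0534 and an adjusted p of 0.525. Its rare guides were the lowest. Guide 131609 had 60.9, 1.73 and 6.2 counts in dead libraries, against 29.8 and 81.1 in living ones (-2.24), and guide 131618 had 0, 112 and 51.9, against 48.6 and 46.2 (-1.41). Both overlapped between the groups. The remaining 4 guides ranged from -0.077 to 0.39. The highest, guide 131613, had 1416, 902 and 1399 counts in dead libraries, against 1342 and 642 in living ones, and overlapped too. With only the guides averaging 50 counts or more, Slc5a1 stood at -0.16, and with the median guide level in each library at 0.16. Its median guide change was 0.017. Over both sugar carriers, 8 of 13 tested guides were higher (61.5%, beside 43.7% of all guides), with a median of 0.11. By gene the median had the opposite sign, at -0.22, with 1 gene above 0 and 1 below.

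Phosphate carriers supply the phosphate that ATP synthesis uses. Of the 21 tested guides against the 3 phosphate carriers, 8 were higher and 13 lower (61.9%, beside 56.3% of all guides), with a median of -0.18. Of these genes, 1 was above 0 and none passed the test. Slc20a1 and Slc20a2 encode PIT1 and PIT2, the sodium-coupled phosphate importers of most cells, which also serve as receptors of certain retroviruses.

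Slc20a1 guides averaged 8.13, 7.16 and 7.65 log2 units in dead libraries, against 8.26 and 8.20 in living ones. All dead libraries were lower, by -0.58 ± 0.31 (adjusted p = 0.61), and 1 of 8 guides was higher. Without dead library b the difference was -0.34, and on summed reads in edgeR -0.24. Guide 132627, the lowest, had 278, 0.863 and 54.2 counts in dead libraries, against 73.7 and 115 in living ones (-1.60 ± 2.27). Dead libraries a and b of that guide lay on opposite sides of the living ones. Guide 132622 was steadier, with 187, 188 and 191 counts in dead libraries, against 402 and 311 in living ones (-0.90 ± 0.22, adjusted p = 0.603). The highest, guide 132625, had 267, 182 and 122 counts in dead libraries, against 210 and 89.9 in living ones (0.40), with overlap.

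Slc20a2 guides averaged 11.10, 11.05 and 11.05 log2 units in dead libraries, against 11.05 and 11.03 in living ones, a difference of 0.024 ± 0.18 (95% interval -0.41 to 0.46, adjusted p = 0.958). Its single guides spread more than that mean. Guide 96273 had 11568, 10721 and 16373 counts in dead libraries, against 8364 and 9559 in living ones (0.50), with no overlap. Guide 96269 had 2724, 2230 and 1466 counts in dead libraries, against 2604 and 3103 in living ones (-0.46), with overlap. Slc34a1, the phosphate carrier of the kidney's proximal tubule, was at -0.069 ± 0.19 with 3 of 6 guides higher, and at 0.001 without dead library c.

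Slc22a2 and Slc22a3 encode OCT2 and OCT3, carriers of organic cations, and lie next to each other on the chromosome with 0 protein-coding genes between them. They were on opposite sides. Slc22a2 guides averaged 7.91, 8.28 and 8.75 log2 units in dead libraries, against 8.89 and 9.22 in living ones. Each dead library was lower, by -0.74 ± 0.30 (SE, 3 against 2 libraries; 95% interval -1.48 to -0.0042), with 1 of 7 guides higher. The limma p was 0.0491 and the adjusted p 0.522. Its median guide change was -0.53. The median guide level, taken within each library and so not always from the same guide, was 0.13 higher. The difference between Slc22a2 and Slc22a3 was not tested.

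The 2 Slc22a2 guides with the most reads differed by similar amounts. Guide 118533 had 2163, 1700 and 1754 counts in dead libraries, against 2694 and 2891 in living ones (-0.58 ± 0.22), and guide 118538 had 2580, 2679 and 3348, against 4177 and 4051 (-0.53 ± 0.22). Neither overlapped between groups. The lowest, guide 118530, had 3.04, 0 and 11.6 counts in dead libraries, against 17.3 and 25 in living ones (-2.55), which is near the limit of a few reads. The highest, guide 118535, had 765, 1108 and 1096 counts in dead libraries, against 761 and 675 in living ones (0.44 ± 0.27), with no overlap. With only the guides averaging 50 counts or more, Slc22a2 stood at -0.44. Summed reads of the tested Slc22a2 guides were 565.6, 587.3 and 644.8 ppm in dead libraries, against 854.9 and 896.8 in living ones, without overlap.

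Slc22a3 guides averaged 9.06, 9.30 and 8.83 log2 units in dead libraries, against 8.86 and 8.99 in living ones. The groups overlapped, at 0.14 ± 0.22 (adjusted p = 0.867), with 5 of 7 guides higher. Without dead library b the difference was 0.018, and without c it was 0.25. Its guides lay closest together of the carriers, with an SD of 0.3 over guides. Guide 38174 had 587, 750 and 680 counts in dead libraries, against 475 and 432 in living ones (0.56 ± 0.22), and guide 38173 had 4527, 2526 and 3591, against 4235 and 4054 (-0.26). Only guide 38174 separated the groups.

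Slc35b2 encodes the Golgi carrier of PAPS, the sulfate donor for heparan sulfate and other glycans. It was at -0.23 ± 0.40 with 4 of 9 guides higher. The differences from the living mean were -0.99 in dead library a, 0.24 in b and 0.047 in c, and the change was 0.14 without dead library a. With all libraries kept, summed reads in edgeR gave 0.29 and the median guide level in each library gave -0.54. Guide 161724 of Slc35b2, with 9301, 11983 and 19767 counts in dead libraries, against 7519 and 6822 in living ones, was at 0.86 ± 0.39. Guide 161727 was at -1.64 ± 0.50, with 115, 245 and 90.6 counts in dead libraries, against 395 and 463 in living ones. Both were free of overlap, in opposite directions.

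Such disagreement within a gene was common and was not particular to the carriers. In the authors' deposited table, 57 of 122 tested carrier guides (46.7%) had an FDR under 0.05, 27 higher and 30 lower. Over all tested guides 22% were higher and 21.3% lower at that threshold. In either direction, 42% of non-targeting and 46% of safe-targeting guides passed it, although these have no gene to act on. Of the 17 carrier genes, 11 (64.7%) held guides past that threshold in both directions, beside 64.6% of all genes. The SD of guide changes within a gene had a median of 0.763 over carriers, with the widest in Slc7a5 (1.32), and a median of 0.81 over all genes.

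Values also differed with how abundant a guide was, taken as the average of its dead mean and its living mean. Carrier guides with an average under 100 counts had a median change of -0.95 (n = 23), those of 100 to 500 had -0.38 (n = 35), those of 500 to 2000 had 0.12 (n = 36) and those of 2000 or more had 0.10 (n = 28). Of the rarest carrier guides, 26.1% were higher in dead cells. Non-targeting guides in the same ranges had medians of -0.85, -0.15, -0.23 and 0.042, and safe-targeting guides -0.66, -0.061, -0.03 and 0.13. In the lowest range 29.5% of non-targeting and 36.5% of safe-targeting guides were higher. The part of abundance in the values of Slc7a5 and the other genes with rare guides was not tested.

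Reads recovered from the values were also summed per gene and tested as counts. In edgeR's quasi-likelihood test no carrier passed, with a smallest adjusted p of 0.135 and 0% of all genes called. Its unadjusted p was under 0.05 for 4 of 17 carriers, 2 in each direction. Of all 915 genes, 107 were higher and 68 lower at that level. DESeq2 called 3 carriers, where it called 4.37% of all genes. Slc31a1 rose (log2 0.49, adjusted p = 0.00215), where 3.5% of all genes did. Slc7a5 (-1.03, adjusted p = 0.000241) and Slc22a2 (-0.48, adjusted p = 0.00949) fell, where 0.874% of all genes did. These sums weigh abundant guides most: guide 116558 alone supplied 9423 of the 15479 Slc31a1 reads in dead library a, against 1970 of 5400 in living library a. Guide 181847 supplied 589 of the 1173 Slc7a5 reads in dead library a, against 977 of 1294 in living library a. Among single guides DESeq2 called 4 of 122 carrier guides (3.28%), all higher: 116558 of Slc31a1, 161724 of Slc35b2, 224351 of Slc39a14 and 110131 of Slc3a1. It called 3.46% of all guides (3.23% higher), 4.2% of non-targeting guides and 6.08% of safe-targeting guides. It gave no adjusted p for 55 of the carrier, 127 of the non-targeting and 106 of the safe-targeting guides, and differences between these shares were not tested.

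The gene ranking in the authors' deposited table held all 17 carriers. Whether their share at either end differed from that of all genes was not tested. For loss in dead cells the authors' deposited table listed 3 carriers with p under 0.05, where 11.5% of all genes had one: Slc22a2 (p = 0.0157, FDR = 0.386, rank 37), Slc7a5 (p = 0.0306, rank 64) and Slc3a1 (p = 0.0386, rank 67). The mean change of Slc3a1 was -0.014, and 5 of its 9 tested guides were higher. For gain the authors' deposited table listed 1 carrier, Slc39a14 (p = 0.0224, rank 15), where 3.35% of all genes had one. Guide 224346 of Slc39a14, which passed the filter through the dead libraries alone, had a log2 fold change of 4.23 there. The gain rank without that guide was not tested. No carrier had an FDR under 0.05 in that table.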

How the data were processed

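Per the submitters' processing notes, MAGeCK 0.5.9.5 was among the tools and GRCm39 among the builds; the guide counter is not stated there. The authors' guide table, per the file headers, gives normalised guide counts of 3 dead and 2 living libraries, joined in one cell per group and without replicate numbers, together with a deposited signal value per group, a log2 fold change, a p-value and an FDR. The authors' deposited gene table adds a rank score, p-value and FDR per direction. The authors' counts from an EOLA1 UV-RIP in human 293T cells (an immunoprecipitation of crosslinked RNA) were not used for any result.

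Low values were whole multiples of 1 read (100% within 0.1 read), so whole reads were recovered by division. Reads carry no molecular identifiers, so depth describes counting error only. Guides had to average 10 or more in the 5 libraries, and genes at least 3 such guides. Means over guides of log2(normalised count + 1) were compared in limma 3.58.1 (lmFit and eBayes, 2-sided, Benjamini-Hochberg over all genes or all guides, 0.05), in R 4.3.3. The added count of 1 shrinks the folds of low guides, but a library near 0 can pull a guide's mean of logs far down. Guide 132627 had a dead mean of 111 and a living mean of 94.3, yet a change of -1.60. Recovered reads were tested with edgeR 4.0.16 and DESeq2 1.42.0, whose adjusted p was missing for 55 of the 122 carrier guides. The fit was also run on simulated reads, drawn with the same dispersion for all guides and libraries. These do not carry the wider spread of the dead libraries, and no result rests on them. Guide numbers are those of the table's guide names. Gene names and neighbours came from the RefSeq table of GRCm38.p6, so no coordinates are given.

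Described in full were the 5 highest and 5 lowest carrier genes, those with groups apart and an unadjusted p under 0.05, and those with the authors' smallest p in each direction, with their highest and lowest guides, and the 5 highest and 5 lowest guides overall; other guides named were chosen after their values were seen. The members and the class list were chosen with earlier results of these data known. Of the 17 genes, 2 are not reported here one by one, though counts and medians over carriers include them.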

Additional observations from a re-analysis of the deposited data

How the results depend on the processing

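Under limma, no solute carrier gene was called under the alternative filters, pseudocount, guide summary, scalings or left-out libraries, and no carrier guide under those run on guides. These settings called 0% of all genes and at most 0.498% of all guides, so they say little about carriers. EdgeR called none either. DESeq2 called 3 genes and 4 guides. Of 225 values of the 15 genes described, 189 kept their direction and call, 33 had the opposite sign and 3 gained a call. Slc7a5, Slc39a14 and Slc20a1 kept their sign throughout. The median carrier gene was at 0.13 with the median of guides, -0.26 with equal library totals and 0.11 with both edgeR and DESeq2. Over all genes these medians were -0.059, -0.28, 0.0059 (edgeR) and 0.004 (DESeq2). Of all genes, 68.2% were lower in dead cells, against 79.7% with equal totals, 57.2% with the median of guides, 49.1% with edgeR and 49.4% with DESeq2. The cause of the following sign changes was not tested.

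Without a guide filter, Slc20a2 stood at -0.10, Slc2a4 at -0.02 and Slc31a1 at -0.087. With a living mean of at least 10, Slc20a2 stood at -0.31. With a pseudocount of 10, Slc31a2 stood at 0.012. With the median guide level of each library, which can come from different guides, Slc20a2 stood at -0.46, Slc22a2 at 0.13, Slc31a2 at 0.28, Slc34a1 at 0.29, Slc38a3 at 0.23 and Slc5a1 at 0.16; the median guide change was 0.16 for Slc20a2, -0.53 for Slc22a2 and -0.048 for Slc38a3. With equal totals, Slc20a2 stood at -0.10 and Slc2a4 at -0.06, and centred on non-targeting guides, Slc3a1 at 0.02. In edgeR, Slc22a3 stood at -0.068, Slc31a2 at 0.026, Slc34a1 at 0.14, Slc35b2 at 0.29, Slc38a3 at 0.16 and Slc5a1 at 0.12; in DESeq2 Slc22a3 stood at -0.07 and Slc31a2 at 0.024, and the other 4 equalled edgeR at 2 decimals. Leaving out each library in turn gave -0.23 to 0.18 for Slc31a2, -0.47 to 0.14 for Slc35b2, -0.025 to 0.19 for Slc2a4, -0.12 to 0.001 for Slc34a1, -0.15 to 0.12 for Slc3a1 and -1.22 to 0.44 for Slc7a6os; without a living library, the lone one is assumed to vary like the dead ones.

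No paired analysis was possible because the joined values carry no replicate numbers. Guides under about 100 counts limit what can be seen here.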
